A study of Homo sapiens with 6 samples.

Results

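The 9 genes described here, CLDN1, CLDN4, CLDN7, CLDN12, OCLN, MARVELD2, F11R, TJP1 and CGN, encode components of the tight junction. They were chosen by name, with earlier results of these data known, from the 58735 genes of the deposited count table. All 9 were among the 15430 genes with enough reads to be tested. The cells were MCF10A, an established nonmalignant line of human breast epithelium, grown in medium with horse serum, insulin, epidermal growth factor, cholera toxin and hydrocortisone. Both groups received siRNA: siControl cells (genotype label WT) a pool without a target and siDAB2IP cells (genotype label DAB2IP knockdown) siRNA against DAB2IP, which encodes a Ras GTPase-activating scaffold protein. Total RNA was collected 48 hours after transfection, and RNA-Seq was performed on 3 libraries per group. The labels do not say whether the 3 were separate cultures, so p values measure only the spread between these libraries, and results from 1 line with a partial knockdown are all that the data hold.

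Tight junctions seal the space between neighboring epithelial cells near their apical surface. Claudins line up into strands across that space and set which ions and small solutes pass, and the MARVEL proteins occludin and tricellulin join the strands, tricellulin where 3 cells meet. The junctional adhesion molecule encoded by F11R helps place the junction, and inside the cell a plaque of proteins such as ZO-1 (TJP1) and cingulin (CGN) ties the strands to actin.

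The libraries held 16353783 to 21916062 counts in siControl and 16669134 to 18085367 in siDAB2IP. DAB2IP itself was at 103.1, 94.25 and 77.38 CPM (counts relative to the library total, scaled by the TMM factors of edgeR) in siControl replicates 1 to 3 and at 27.47, 25.59 and 22.38 CPM in siDAB2IP replicates 1 to 3. Its log2 fold change was −1.86 (standard error [SE] 0.13, adjusted p = 9.71e-05, edgeR). In a principal component analysis of log2 CPM, siDAB2IP replicate 3 stood apart from the other siDAB2IP libraries, at 51.1 against 18.1 and 20.4 on component 1 (51.5% of the variance) and at −27.3 against 22.9 and 23.3 on component 2 (20.2%), where siControl replicate 3 was also low at −23.0. Of 5 endothelial markers, 4 exceeded 1 CPM, so a level above 1 CPM does not by itself identify a cell type. All 10 epithelial markers examined were above 1 CPM, CDH1, EPCAM and the keratins among them. The summed level of these markers was 9380 to 11500 CPM in siControl and 5790 to 7250 CPM in siDAB2IP, and 4 of the 10 (40%, against 7.65% of all genes tested) fell, all keratins, from 3532 to 1800 CPM for KRT5, from 2186 to 764.8 CPM for KRT14, from 813.3 to 560.3 CPM for KRT17 and from 1395 to 848.8 CPM for KRT6A. CDH1, KRT8, KRT18, EPCAM, ITGB4 and TP63 did not pass the threshold, although with the replicate number as a block TP63 did (adjusted p = 0.00456, edgeR). With 1 library left out, KRT5, KRT14 and KRT6A passed in all 6 fits and KRT17 in 1. The part of this shift in the values below was not tested.

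Of 7 fibroblast markers, 2 were above 1 CPM. COL1A1 rose from 15.3 to 26.3 CPM (called in 4 of the 6 fits with a library left out), DCN was at 201.4 and 143.4 CPM in siControl and siDAB2IP, and the list summed to 163 to 293 CPM in siControl and 146 to 206 CPM in siDAB2IP. COL1A2, COL3A1, LUM and PDGFRA, which fibroblasts express highly, were below 0.2 CPM in each group mean. PDGFRB was at 0.954 CPM in siControl and 0.62 CPM in siDAB2IP (adjusted p = 0.476, edgeR). Of 5 endothelial markers, 4 exceeded 1 CPM, and their sum was 23.4 to 33.2 CPM in siControl and 15 to 16.5 CPM in siDAB2IP, with KDR falling from 12.6 to 6.62 CPM (adjusted p = 0.0471, edgeR), a call made in 7 of 18 alternative settings and in 2 of the 6 fits with a library left out. Among 5 blood cell markers only CD14 exceeded 1 CPM, the sums were 35.9 to 69.9 and 49.5 to 77.2 CPM, and CD3E had no count. Whether these genes play a part in the junction gene values was not tested, and in RNA from whole cultures fewer cells of a kind and less RNA per cell cannot be told apart.

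5 of the 9 tight junction genes rose with DAB2IP knockdown (CLDN1, CLDN4, CLDN12, F11R and CGN), none fell, and CLDN7, OCLN, MARVELD2 and TJP1 did not pass the threshold, which was a Benjamini-Hochberg adjusted p under 0.05 over all genes tested in edgeR's quasi-likelihood test. The 5 are 55.6% of the 9, against 6.55% of all genes tested that rose, and the 0 that fell stand against 7.65%. At an unadjusted p under 0.05, edgeR counted 6 higher and 0 lower, and DESeq2 and limma also had 0 lower. How many of all genes passed at an unadjusted p was not counted. This and the later unadjusted counts therefore have no share of all genes beside them. The largest change was in CLDN4, by 2.62-fold, followed by CLDN12 with 1.85-fold. The median log2 fold change of the 9 was 0.41, against 0.01 for all genes tested, and 8 of 9 were higher in siDAB2IP. The groups did not overlap, with siDAB2IP the higher, for 6 of the 9, CLDN7 being the additional one, against 17.6% of all genes tested. For each of these 6, a two-sided exact permutation test of the CPM values gave p = 0.1, below which a design of 3 against 3 cannot go.

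The count of members that rose depended on single libraries. At the same threshold 2 members rose without siControl replicate 2, without siControl replicate 3 or without siDAB2IP replicate 1, and 7 rose without siDAB2IP replicate 3. The number of all genes that rose moved as well, to 264, 398, 658 and 1172 in these fits. CLDN4 and CLDN12 passed the threshold in all 6 fits that left out 1 library, CGN in 3, CLDN1 and CLDN7 in 2, and F11R and OCLN in 1.

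**Figure D1:**
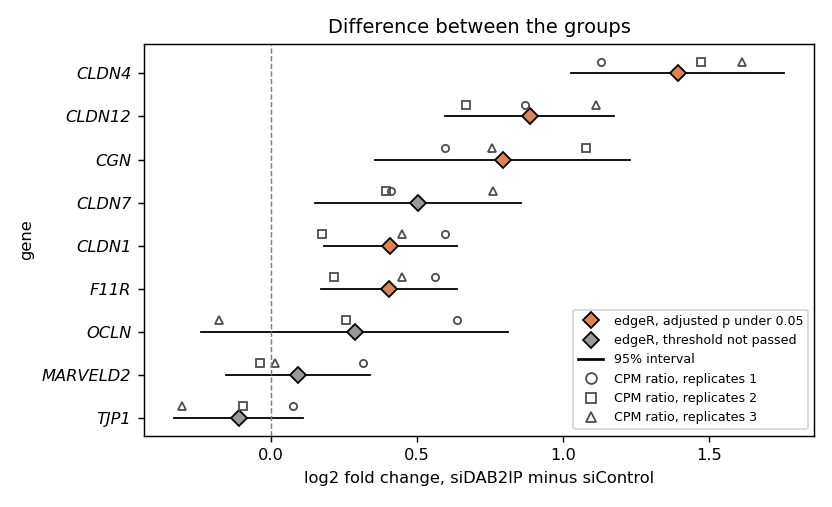
Log2 fold changes of the 9 genes, siDAB2IP minus siControl, from edgeR with 95% intervals (diamonds and lines) and the log2 ratios of CPM within each replicate number (open symbols). Orange diamonds mark an adjusted p under 0.05. CLDN4 lies farthest from 0 at 1.39, and 6 genes have all 3 ratios above 0.

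The claudins come first because they form the strands. CLDN4 lies on chromosome 7 (GRCh38, chr7:73799542-73832693, plus strand) and encodes claudin-4, which tightens the barrier of many epithelia. It was at 29.53, 28.83 and 19.96 CPM in siControl replicates 1 to 3 and at 64.65, 79.92 and 60.94 CPM in siDAB2IP replicates 1 to 3. The lowest siDAB2IP library was thus above the highest siControl library by more than the whole range of the controls. The log2 fold change was 1.39 (SE 0.16, 95% interval 1.03 to 1.75, adjusted p = 0.00124, edgeR), above 99.2% of the genes tested. Without any 1 library it stayed between 1.21 and 1.47.

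CLDN12 (chr7:90383721-90513402, plus strand) encodes claudin-12, an atypical claudin. Its values were 55.7, 70.48 and 62.29 CPM in siControl and 101.6, 111.9 and 134.7 CPM in siDAB2IP, with no overlap. The gene rose by 0.88 on the log2 scale (SE 0.13, 95% interval 0.60 to 1.17, adjusted p = 0.00323, edgeR). The annotation places CLDN12 across exons of other genes of the same strand, sharing 347 of its 6741 exonic bases with GTPBP10 and 201 with CDK14. It also shares 371 with AC006153.1 and 276 with AC002456.2, which had 0 counts in each library. GTPBP10 had 234 to 363 counts per library and CDK14 341 to 643, against 894 to 2324 for CLDN12, so reads in the shared bases may be split differently by another counting rule.

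CLDN1 (chr3:190305701-190322475, minus strand) encodes claudin-1, a core barrier claudin of skin and other epithelia. It was at 54.58, 60.77 and 55.84 CPM in siControl and at 82.42, 68.57 and 76.24 CPM in siDAB2IP. The groups did not overlap, although siControl replicate 2 and siDAB2IP replicate 2 stood only 0.17 apart on the log2 scale, against 0.59 and 0.45 for replicates 1 and 3. The log2 fold change was 0.41 (SE 0.10, 95% interval 0.18 to 0.64, adjusted p = 0.0275, edgeR), and the adjusted p ranged from 0.0244 to 0.106 with 1 library left out, missing the threshold in 4 of 6 fits.

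CLDN7 (chr17:7259903-7263983, minus strand) encodes claudin-7, which is found along the lateral membrane as well as in tight junctions. Its libraries read 206.8, 177.4 and 131.9 CPM in siControl and 274.9, 232.7 and 223.5 CPM in siDAB2IP. Replicate 1 was the highest library in each group and replicate 3 the lowest, and the groups did not overlap. The log2 fold change of 0.50 (SE 0.16, 95% interval 0.15 to 0.86) did not pass the threshold (adjusted p = 0.0619, edgeR), but did so without siControl replicate 1 and without siDAB2IP replicate 3 (adjusted p = 0.0296 in the latter, edgeR). With the replicate number as a block, which takes out the shared differences between replicates, it was 0.52 with an adjusted p of 0.0091 in edgeR, and 6 of the 9 genes then rose, against 9.59% of all genes tested. CLDN7 shares 269 of its 2492 exonic bases with AC003688.1 on the same strand, which had 0 counts in each library. CLDN7 also shares 38 with ELP5 on the opposite strand, and the strand setting of the counting is not given in the sources used here.

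**Figure D2:**
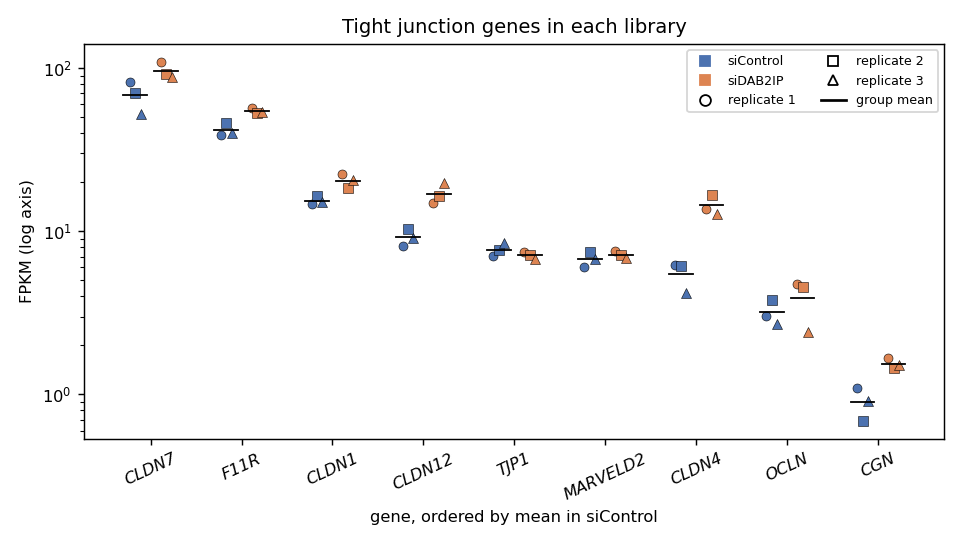
Level of each gene in each library in FPKM (fragments scaled by gene length and library total, log axis), with genes ordered by their mean in siControl, symbols for replicate numbers and lines for group means. CLDN7 is highest and CGN lowest in both groups, and CLDN4 moves from 5.50 to 14.4 FPKM.

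The MARVEL proteins did not pass the threshold. OCLN (chr5:69492292-69558104, plus strand), which encodes occludin, was at 20.75, 25.91 and 18.55 CPM in siControl and at 32.21, 30.96 and 16.41 CPM in siDAB2IP. In siDAB2IP, 2 libraries were above all controls and replicate 3 was below all of them. The log2 fold change was 0.29 (SE 0.24, 95% interval −0.24 to 0.81, adjusted p = 0.464, edgeR), and without siDAB2IP replicate 3 it was 0.54 (adjusted p = 0.0243, edgeR). OCLNP1, a pseudogene copy of OCLN, had 0 to 4 counts in any library.

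MARVELD2 (chr5:69415065-69444330, plus strand), which encodes tricellulin, is a neighbor of OCLN. It was at 32.84, 40.11 and 36.87 CPM in siControl and at 40.79, 39.05 and 37.22 CPM in siDAB2IP. The siDAB2IP libraries fell within the range of siControl except for replicate 1, and the log2 fold change was 0.09 (SE 0.11, 95% interval −0.15 to 0.34, adjusted p = 0.633, edgeR). Exact permutation tests gave p = 0.4 for MARVELD2 and for OCLN.

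F11R (chr1:160995211-161021348, minus strand) encodes junctional adhesion molecule A, an immunoglobulin-type adhesion protein. It was at 198.3, 235.4 and 204 CPM in siControl and at 292.4, 273.3 and 278 CPM in siDAB2IP, again without overlap. The rise of 0.40 on the log2 scale (SE 0.10, 95% interval 0.17 to 0.64, adjusted p = 0.0306, edgeR) was close to that of CLDN1, but its adjusted p stayed under 0.05 in only 1 of the 6 fits with a library left out (range 0.0183 to 0.119). A readthrough gene that shares 1853 of the 5066 exonic bases of F11R had 0 to 6 counts per library.

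The plaque genes gave unlike values. CGN (chr1:151510510-151538692, plus strand), which encodes cingulin, a protein that links the junction to myosin, was at 7.352, 4.596 and 6.047 CPM in siControl and at 11.11, 9.692 and 10.2 CPM in siDAB2IP. These are 99 to 118 counts and 175 to 197 counts per library, the smallest of the 9. CGN rose by 0.79 on the log2 scale (SE 0.20, 95% interval 0.36 to 1.23, adjusted p = 0.0261, edgeR), and missed the threshold in 3 of the 6 fits with a library left out.

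TJP1 (chr15:29699367-29968865, minus strand) encodes ZO-1, the scaffold that binds claudins, occludin and actin. It was at 80.37, 87.42 and 95.82 CPM in siControl and at 84.68, 81.86 and 77.46 CPM in siDAB2IP. The groups overlapped, and TJP1 was the only one of the 9 with a negative log2 fold change, −0.11 (SE 0.10, 95% interval −0.33 to 0.11, adjusted p = 0.497, edgeR; exact permutation p = 0.3). The FPKM ratio of TJP1 to OCLN was 2.325, 2.025 and 3.1 in siControl and 1.578, 1.587 and 2.833 in siDAB2IP (exact permutation p = 0.5), with replicate 3 the highest in both groups. Within each replicate number the ratio was lower in siDAB2IP, a pairing that the permutation test does not use.

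**Figure D3:**
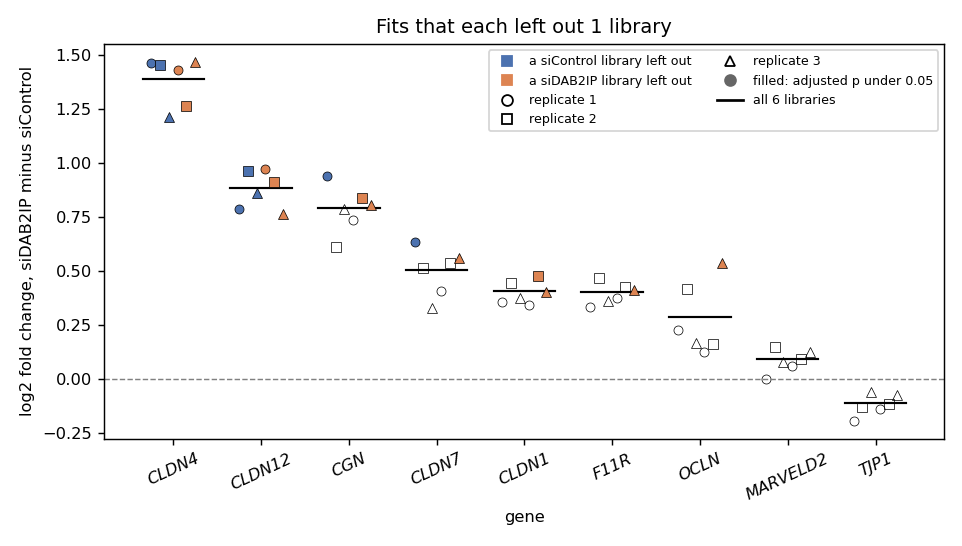
Log2 fold changes of the 9 genes in the 6 edgeR fits that each left out 1 library, colored by the group of that library, with black lines for the fit of all 6. Filled symbols have an adjusted p under 0.05, which CLDN4 and CLDN12 reach in each of the 6 fits and MARVELD2 and TJP1 in none.

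Between genes, levels are comparable only per length. In siControl the order of mean FPKM was CLDN7 (68.4 ± 15 FPKM, SD, n = 3), F11R (41.6 ± 4.03), CLDN1 (15.4 ± 0.927), CLDN12 (9.24 ± 1.11), TJP1 (7.73 ± 0.680), MARVELD2 (6.76 ± 0.689), CLDN4 (5.50 ± 1.13), OCLN (3.19 ± 0.562) and CGN (0.898 ± 0.205). Neighbors from CLDN12 to CLDN4 overlapped in their ranges, and the other neighbors did not. In siDAB2IP, CLDN4 stood at 14.4 ± 2.11 FPKM (SD, n = 3), next below CLDN12 at 17.0 ± 2.47 FPKM and clear of MARVELD2 at 7.19 ± 0.340 FPKM and TJP1 at 7.14 ± 0.330 FPKM. The ranges of CLDN1 and CLDN12 overlapped, as did those of CLDN12 and CLDN4 and of MARVELD2 and TJP1. CLDN4 moved from rank 7 to rank 5 and TJP1 from rank 5 to rank 7, and the other genes kept their ranks.

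The claudin transcripts were then summed within each library. Of the family, 8 passed the filter on low counts, the 4 above and CLDN9, CLDN11, CLDN15 and CLDN23. Their sum was 118.2, 109.5 and 87.09 FPKM in siControl and 165.5, 148.5 and 148.4 FPKM in siDAB2IP, with no overlap (exact permutation p = 0.1, Benjamini-Hochberg adjusted p = 0.25 over 10 relations). CLDN4 made up 5.257, 5.565 and 4.825% of the sum in siControl and 8.233, 11.32 and 8.626% in siDAB2IP (exact permutation p = 0.1, adjusted p = 0.25), so that its share as well as its level did not overlap between the groups. CLDN7 remained the main claudin at 64.7 ± 4.66% in siControl and 62.6 ± 3.21% in siDAB2IP (SD, n = 3, exact permutation p = 0.6). Within each replicate number its share was lower in siDAB2IP (69.46, 64.59 and 60.15% against 66.06, 62.16 and 59.69%), a pairing that the test does not use. The shares of CLDN15 and CLDN23 were lower without overlap, from 4.24 to 2.37% and from 1.37 to 0.758%, while their own log2 fold changes, −0.27 and −0.28, did not pass the threshold (adjusted p = 0.503 and 0.492, edgeR). Without siDAB2IP replicate 3, the log2 fold change of CLDN15 was −0.61 (adjusted p = 0.032, edgeR), and without siDAB2IP replicate 2 it was −0.07.

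**Figure D4:**
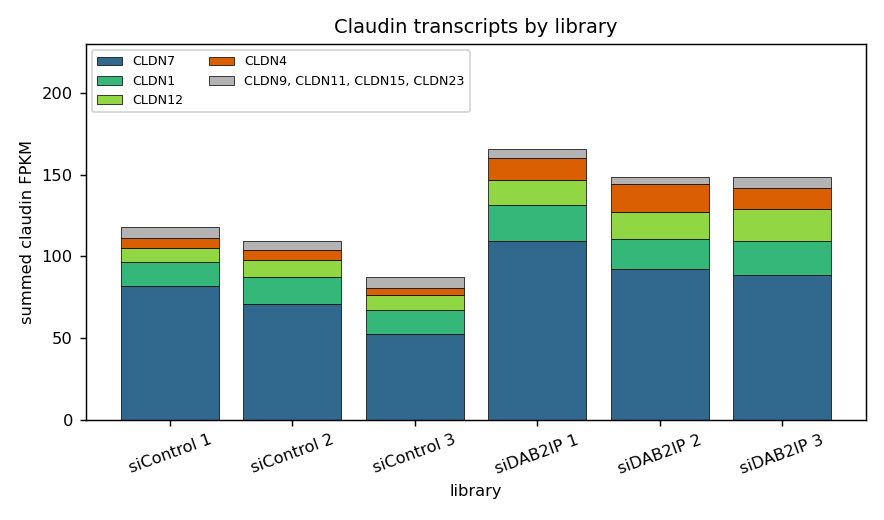
Summed FPKM of the 8 claudin genes that passed the filter, stacked by gene for each library. The siControl sums lie between 87.1 and 118.2 FPKM and the siDAB2IP sums between 148.4 and 165.5 FPKM, with CLDN7 the largest layer in every bar.

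The region before the start site is shown for 3 claudin genes because it holds the searched motifs. RefSeq promoters (GRCh38.p14, 250 bases before to 50 bases after the start site) were found for 8 of the 9 genes, in 13 entries, and were searched on both strands for 4 motifs. The AP-1 motif TGANTCA was in 7.71% of the 35116 promoters and, of the 13, in that of CLDN4, where it occurs at −242 and −161 from the start site. The E-box CAGGTG, bound by repressors of the SNAI and ZEB families, was in 20.6% of promoters and in 4 of the 13, which are both entries of OCLN, 1 of 4 of TJP1 and 1 of 2 of CLDN7. That CLDN7 entry holds it 5 times, at −174, −135, −20, −9 and 6, and CACCTG is the same motif read on the other strand. An NF-κB motif was in 11.3% of promoters and in that of CLDN1 at −70, and the Grainyhead motif AACCGGTT was in 0.134% and in none of the 13. A match is a description of the letters, not of binding. Below are the 250 bases before the start site, 5′ to 3′ along the gene, with matches in capitals, at chr7:73830746-73830995 for CLDN4 (plus strand), chr17:7262479-7262728 for CLDN7 (minus strand) and chr3:190322447-190322696 for CLDN1 (minus strand).
CLDN4: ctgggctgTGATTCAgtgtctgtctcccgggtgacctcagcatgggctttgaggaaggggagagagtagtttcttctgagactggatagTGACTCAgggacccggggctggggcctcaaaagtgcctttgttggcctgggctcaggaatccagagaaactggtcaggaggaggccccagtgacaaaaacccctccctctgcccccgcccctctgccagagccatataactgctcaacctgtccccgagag
CLDN7: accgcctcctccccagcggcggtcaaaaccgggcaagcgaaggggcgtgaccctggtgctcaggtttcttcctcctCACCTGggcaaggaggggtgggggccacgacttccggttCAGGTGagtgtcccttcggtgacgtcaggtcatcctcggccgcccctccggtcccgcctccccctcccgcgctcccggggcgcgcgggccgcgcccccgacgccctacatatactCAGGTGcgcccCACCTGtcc
CLDN1: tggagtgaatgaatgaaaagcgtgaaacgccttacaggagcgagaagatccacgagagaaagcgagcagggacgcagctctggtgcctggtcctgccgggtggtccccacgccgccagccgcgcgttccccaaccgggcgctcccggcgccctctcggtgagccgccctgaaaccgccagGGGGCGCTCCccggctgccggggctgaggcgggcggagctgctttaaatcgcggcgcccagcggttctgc

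The 85 other junction genes of the lists that surround these 9, of which 65 were tested, moved in both directions. Among them 6 rose and 4 fell, or 9.23% and 6.15%, close to the 6.55% and 7.65% of all genes tested, and their median log2 fold change was 0.00 (34 higher, 31 lower). Without siControl replicate 2, 1 of the 66 then tested rose, and without siControl replicate 1 or 3, 2 rose. Over all genes, 264 of 15838, 434 of 15858 and 398 of 15840 rose without siControl replicates 2, 1 and 3.

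Of 20 other claudins, 4 were tested and none rose or fell in edgeR (0 at an unadjusted p under 0.05), against 6.55% and 7.65% of all genes tested. DESeq2 also called none, with 1 lower at an unadjusted p under 0.05. In edgeR, 1 of 5 fell without siDAB2IP replicate 2, 1 of 5 without siDAB2IP replicate 3 and 1 of 16 without the filter on low counts. Over all genes, 1019 of 15820, 1352 of 15743 and 1692 of 29567 fell in these settings. CLDN15 was called only without siDAB2IP replicate 3, so the other calls were not of CLDN15. CLDN18, not tested in the reported fit, had 18, 12 and 22 counts in siControl and 3, 7 and 2 in siDAB2IP. CLDN17, CLDN22, CLDN25 and CLDN34 had no count in any library. Of 13 other membrane proteins, 12 were tested, 1 rose and 1 fell, or 8.33% each, near the 6.55% and 7.65% of all genes tested. CXADR, which encodes the coxsackievirus and adenovirus receptor of the junction, fell, and ILDR1, which encodes angulin-2 of the tricellular junction, rose. CXADR was at 61.12, 74.7 and 46.79 CPM in siControl and at 19.01, 15.78 and 5.798 CPM in siDAB2IP. Every knockdown library was thus below every control, and the log2 fold change of −2.17 (SE 0.34, adjusted p = 0.00428, edgeR) was larger in size than that of any of the 9. ILDR1 had few reads, at 0.721 CPM in siControl and 1.68 CPM in siDAB2IP (adjusted p = 0.0306, edgeR), and passed in 1 of the 6 fits with a library left out. MARVELD1, the most abundant of these genes, was at 460.2 and 407.2 CPM (adjusted p = 0.568, edgeR).

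Of 11 plaque and scaffold genes, 10 were tested and 0 fell, against 7.65% of all genes tested. The 1 that rose (10%, near the 6.55% of all genes tested) was MAGI1. This scaffold with a guanylate kinase-like domain was at 11.34, 10.07 and 10.63 CPM in siControl and at 18.45, 18.17 and 14.49 CPM in siDAB2IP, a log2 fold change of 0.68 (SE 0.15, adjusted p = 0.0163, edgeR) without overlap, and it passed in 3 of the 6 fits with a library left out. YBX3, which binds ZO-1 and was the most abundant, stood at −0.16 on the log2 scale (adjusted p = 0.338, edgeR). All 13 polarity genes were tested and none rose or fell in edgeR, against 6.55% and 7.65% of all genes tested. At an unadjusted p under 0.05, edgeR had 1 polarity gene higher. DESeq2 called none, and 1 rose in edgeR without siDAB2IP replicate 3. SCRIB was among the 13, with a log2 difference of 0.08 (adjusted p = 0.668, edgeR).

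Of 14 regulators of the junction, 13 were tested, 3 rose and 1 fell, or 23.1% and 7.69% against 6.55% and 7.65% of all genes tested, and 1 rose when any 1 siControl library was left out. PRSS8, which encodes the membrane protease prostasin, was at 60.69, 50.98 and 43.15 CPM in siControl and at 111.4, 80.47 and 85.93 CPM in siDAB2IP, and its rise of 0.84 on the log2 scale (SE 0.15, adjusted p = 0.00767, edgeR) passed in all 6 fits with a library left out. ST14, which encodes the partner protease matriptase, had a difference of −0.28 on the log2 scale (adjusted p = 0.356, edgeR). AMOTL2, an angiomotin family scaffold, rose from 48.5 to 70.6 CPM (adjusted p = 0.0335, edgeR), and MYLK, the myosin light chain kinase gene, from 1.78 to 4.11 CPM (adjusted p = 0.0206, edgeR). MYLK rests on 27 to 96 counts per library, and an antisense gene that overlaps it had 21.9% as many. ROCK2, which encodes a kinase that promotes actomyosin contraction, fell from 74 to 53.8 CPM (adjusted p = 0.0207, edgeR). Each of AMOTL2, MYLK and ROCK2 missed the threshold in 3 of the 6 fits with a library left out.

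Of 14 genes for transcription factors of epithelial junction genes and for the splicing regulators ESRP1 and ESRP2, 13 were tested, 1 rose and 2 fell, or 7.69% and 15.4% against 6.55% and 7.65% of all genes tested. GRHL3, a Grainyhead factor, was at 19.19, 21.91 and 24.37 CPM in siControl and at 32.78, 34.78 and 31.37 CPM in siDAB2IP, a rise of 0.60 on the log2 scale (SE 0.12, adjusted p = 0.0132, edgeR) that missed the threshold without siControl replicate 1 (adjusted p = 0.0541) and without siControl replicate 2 (adjusted p = 0.07). GRHL2, its relative, is listed at 0 counts in all 6 libraries of the deposited table, a row that was not checked against the reads, so nothing is read from it about expression. EHF, an epithelial ETS factor, fell from 79.44, 78.88 and 62.12 CPM to 29.17, 28.69 and 28.35 CPM, or by 1.35 on the log2 scale (SE 0.12, adjusted p = 0.000227, edgeR). TWIST1, which promotes the epithelial-mesenchymal transition, fell from 42.3 to 25.3 CPM (adjusted p = 0.00372, edgeR), and ESRP2 had a log2 difference of −0.17 (adjusted p = 0.242, edgeR). An antisense gene that overlaps TWIST1 had 3.66% as many counts. EHF and TWIST1 passed in all 6 fits with a library left out.

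**Figure D5:**
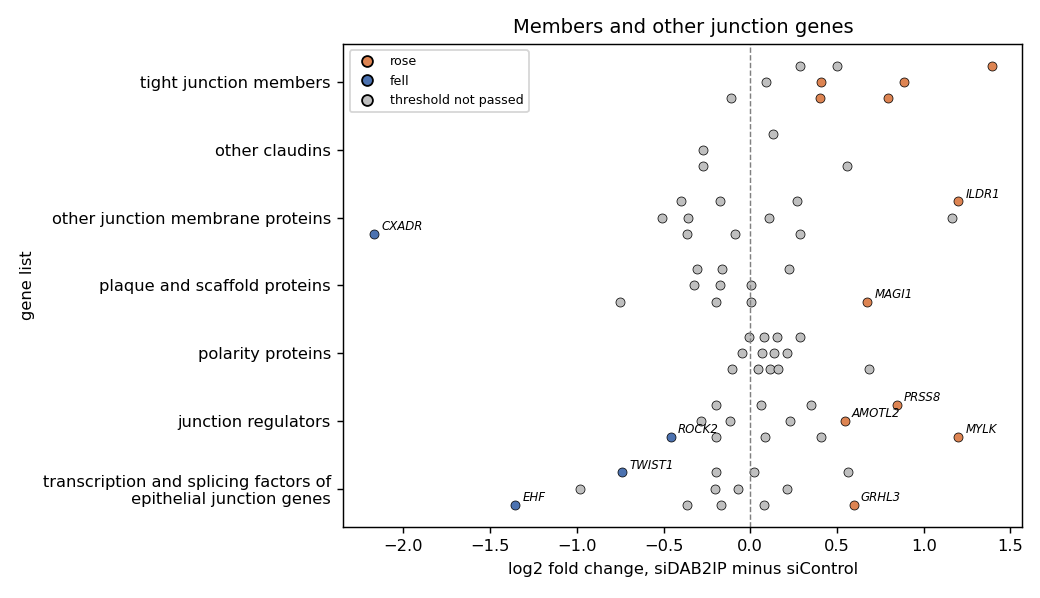
Log2 fold changes of the 9 tight junction genes (top) and of the tested genes of 6 other junction lists, siDAB2IP minus siControl, with orange for genes that rose and blue for genes that fell in edgeR. Points of the top row lie mostly right of 0, and CXADR at −2.17 lies farthest to the left.

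In the adjacent adherens junction, which joins cells through cadherins and nectins below the tight junction, all 10 genes were tested, 1 rose and 1 fell, 10% each, near the 6.55% and 7.65% of all genes tested. NECTIN4 was at 16.76, 13.09 and 13.15 CPM in siControl and at 30.07, 25.48 and 39.37 CPM in siDAB2IP, a log2 fold change of 1.14 (SE 0.18, adjusted p = 0.00421, edgeR). CTNNB1, which encodes β-catenin, fell from 287.6 to 207.3 CPM (adjusted p = 0.0168, edgeR; 0.0714 without siControl replicate 2). The cadherins CDH1 and CDH3 were at 0.09 and −0.22 on the log2 scale and did not pass the threshold (adjusted p = 0.701 and 0.18, edgeR).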

How the data were processed

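RNA of 6 MCF10A libraries, 3 siControl and 3 siDAB2IP, was sequenced. The submitters' processing notes name STAR 2.6.1d, featureCounts 1.5.0-p3, DESeq2 1.20.0, edgeR 3.24.3 and the build hg38, without giving their roles or the strand setting. The authors deposited counts per gene, whole numbers without normalization, and FPKM values, which the authors derived from each count by gene length and a scaled library total. All 58735 genes match GENCODE release 29 in position and strand.

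Counts were analyzed with edgeR 4.0.16 in R 4.3.3 (filterByExpr by group, TMM, glmQLFit, glmQLFTest, Benjamini-Hochberg over 15430 genes). SEs were derived from the F statistic. Library totals give a floor of 3 counts, 0.137 to 0.183 CPM, for counting error only. Scripts were tested on simulated data. Alternatives were DESeq2 1.42.0, other scalings, filters and thresholds, limma 3.58.1 on log2(FPKM + 1) and log2(FPKM + 0.1), a replicate block and leaving out each library.

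The labels number the replicates 1 to 3 in both groups without saying what a number stands for. Deviations from the group means correlated across genes at 0.265, 0.155 and 0.255 between libraries of the same number and at −0.278 to 0.0207 otherwise, and libraries of the same number were therefore treated as pairs in the blocked fit. The deviations sum to 0 within each group by construction. Correlations between different numbers are thus not independent of those of the same number, and the pairing remains an inference.

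The 9 genes and all lists were chosen with earlier results of these data known. Named genes are DAB2IP, the 9 and, per list, those past the threshold (at most 6) and the one with the highest mean FPKM. Others (markers that missed the threshold or were near 0, LSR and MICALL2, CLDN18, the claudins of the sum or without counts, CDH1, ESRP1, GRHL2 and genes that overlap a named gene) were named after their values were seen. Promoters are from RefSeq, and protein sequences were not used here.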

Additional observations from a re-analysis of the deposited data

How the results depend on the processing

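Of the 9 tight junction genes, 5 rose in the reported fit. The number was 2 at an adjusted p under 0.01, 1 (CLDN4) when a log2 fold change of 1 or more in size was required beside an adjusted p under 0.05, 1 with limma on log2(FPKM + 1) over every gene with a count (6 at an unadjusted p under 0.05), and 2 to 7 with 1 library left out. Over all genes, 1011 of 15430 rose in the reported fit, and in the first 3 of these settings 254 of 15430, 236 of 15430 and 176 of 29567, so the counts fell for all genes as well. For the 9 it was 4 to 6 under the other settings, and 6 with the replicate block, which added CLDN7 (adjusted p = 0.0091, edgeR) and changed no other call among the 9. Outside the 9, the block added LSR (lower, adjusted p = 0.0231, edgeR), MICALL2 (higher, 0.0492), TP63 (lower, 0.00456), DCN (lower, 0.0247) and PECAM1 (lower, 0.0499). None of the 9 fell under any setting. CLDN4 passed under all 18 settings, CLDN12 under 16, CLDN1 under 11, F11R and CGN under 10, CLDN7 under 6, OCLN under 1 and MARVELD2 and TJP1 under 0.

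Of the other tight junction genes, 6 of 65 rose in the reported fit. The number was 1 of 65 at an adjusted p under 0.01 and 2 of 65 with that requirement on size. It was 2 of 46 with limma on log2(FPKM + 1), 2 of 46 with limma on log2(FPKM + 0.1) and 0 of 80 with limma over every gene with a count (10 at an unadjusted p under 0.05). Over all genes, 254 of 15430, 236 of 15430, 684 of 12412, 659 of 12412 and 176 of 29567 rose in these settings. With 1 library left out, 1 to 8 of the other tight junction genes rose, and 264 to 1172 of all genes. 4 of 65 fell in the reported fit. The number was 7 of 80 without a filter on low counts, 2 of 65 with the requirement on size and 2 of 80 with limma over every gene with a count. Over all genes, 1181 of 15430 fell in the reported fit, and 1692 of 29567, 374 of 15430 and 202 of 29567 in these settings. The share of CLDN4 among claudins was higher in siDAB2IP by 4.18 percentage points on FPKM and by 5.50 points on CPM, which does not correct for gene length. The sign turned for MARVELD2 without siControl replicate 1 (−0.0034, range with 1 library left out −0.0034 to 0.15), for MARVELD1 without siDAB2IP replicate 3 (0.032, range −0.34 to 0.032) and for CD14 without siControl replicate 3 (−0.078, range −0.078 to 0.34), none of them past the threshold. Apart from the thresholds and filters, whose construction changes what is tested, the cause of these shifts was not tested. With 3 libraries per group, a gene that missed the threshold is not shown to be unchanged, and CGN, ILDR1 and MYLK rest on few reads.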
